A study of Mus musculus with 6 samples.

Results

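The comparison described here sets B16 cells that spent 3 h in chronic hypoxia (less than 1% oxygen) and then 1 h in reoxygenation against B16 cells kept in normoxia for the same 3 h and 1 h more, the group labelled normoxia +1h. B16 is a mouse melanoma line, grown per the labels in alpha MEM with 10% FCS and moved to serum-free medium 2 h before the exposure, so the controls were deprived of serum as well. These are 2 of the 6 arrays of the study, 1 array a group. The other 4 are normoxia and chronic hypoxia collected at 3 h, and cyclic hypoxia (3 hypoxic periods of 1 h each, with 30 min of oxygen between them) collected at its end and after 1 h of reoxygenation. Affymetrix probe sets give a signal in intensity units, and where several probe sets name a gene the brightest over the 6 arrays stands for it. Of 12393 genes, the 3573 with a mean signal of 100 or more are the main set. Differences are log2 ratios of the signal after hypoxia and reoxygenation over the signal in normoxia +1h, with values under 2.1 set to 2.1. With 1 array a side no difference has an error or a test, and the labels do not say whether the arrays came from separate cultures. The difference between the 2 normoxia arrays, collected 1 h apart, is given as a yardstick.

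When oxygen is short, the prolyl hydroxylases that mark the HIF alpha subunits for destruction lose activity, and HIF then drives genes of glucose uptake, glycolysis, mitophagy and angiogenesis. Oxygen also feeds other dioxygenases, among them the JmjC histone demethylases, and its loss and return can stress protein folding in the endoplasmic reticulum and raise reactive oxygen species. On reoxygenation HIF alpha protein is degraded within minutes, whereas a transcript stays until it decays, so its level soon afterwards depends both on ongoing transcription and on its stability. Melanocytes, the cells from which melanoma arises, are marked by Mitf and by the pigment enzymes Tyr, Tyrp1 and Dct.

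The cells carried their lineage markers, and the arrays were alike in overall signal. All 7 of the melanocyte markers with a named probe set had a signal of 100 or more in all 6 arrays, with a lowest value of 635, whereas no fibroblast, immune, endothelial or keratinocyte marker reached 100 in any array (the brightest, Cd68, was at most 44.5). Of a wider list of 8 fibroblast markers, Fbln1 alone had a mean signal over 100, with 125 to 207 across the arrays. The median signal was 17.6 in normoxia +1h and 19.3 after chronic hypoxia and reoxygenation, with a trimmed mean of 100 in each array, and 18.4% to 21.2% of the values of an array lay under 2.1. Over probe sets of mean signal 100 or more, the mean correlation of an array with the others was 0.929 for cyclic hypoxia with reoxygenation and 0.958 to 0.966 for the rest. In bulk RNA, fewer cells expressing a gene and less RNA per cell cannot be told apart.

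After 1 h of reoxygenation, far more genes were 2-fold or more above normoxia +1h than 2-fold or more below it. In the main set 38 genes (1.06%) were 2-fold or more higher after chronic hypoxia and reoxygenation and 2 (0.056%) were 2-fold or more lower, and 11 and 1 of them passed 4-fold. At 1.5-fold the counts were 107 higher and 66 lower. The median difference was -0.03 and the SD over genes 0.32. Between the 2 normoxia arrays the SD was 0.21, and 0 genes were 2-fold higher and 1 (0.028%) 2-fold lower. All 38 genes had a higher signal after reoxygenation than in either normoxia array, and 28 were 2-fold or more above both. The limit of 100 is on the mean of all 6 arrays, so a gene dim in normoxia can enter through its hypoxic arrays. This can favour higher genes. Ccn1 (41.0 and 35.2 in the normoxia arrays) and Fos (55.6 and 55.7) were among the genes that entered in this way. Sap30, Hilpda, Jmjd6, Pvt1, Pvr, Mxi1, Hmox1, Nupr1, Rnf19a and Myc were also under 100 in both normoxia arrays. Egr1 entered only through the cyclic array with reoxygenation (333). No limit on the normoxia signal alone was tried, so how far the filter shaped the counts of higher genes is not known. Of the 38, 8 had another probe set of mean signal 100 or more, and for 5 of these 8 all such probe sets were 2-fold or more higher. The excess held for moderately bright genes, with 29 of 2066 genes of mean signal 100 to 300 and 9 of 1093 genes of 300 to 1000 being 2-fold higher, while none of the 414 genes of 1000 or more was. Genes of mean signal 30 to 100 gave 46 higher and 17 lower, against 5 and 15 between the normoxia arrays. Under 30 the comparison gave 986 higher and 589 lower against 516 and 972 between the normoxia arrays, so no count is taken from that range. Just inside the limit of 100 lay Syf2 (mean signal 100.2) and Brcc3 (100.1), and just outside it Cnppd1 (99.97) and Pold4 (99.95).

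**Figure D1:**
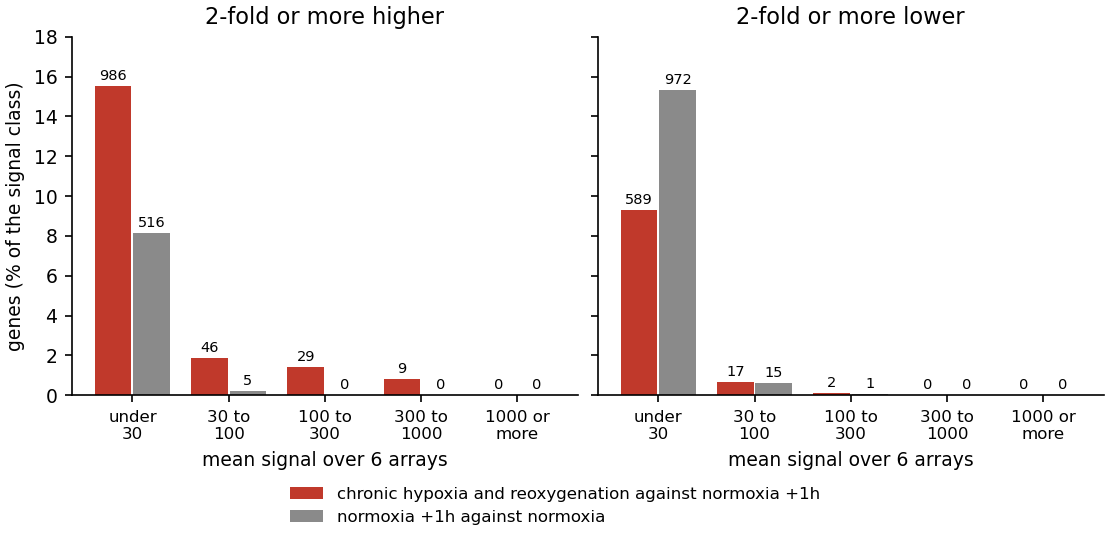
Bars give the percent of genes of a signal class (mean signal over 6 arrays, in intensity units) that were 2-fold or more higher (left) or lower (right), with the number of genes above each bar, for chronic hypoxia and reoxygenation against normoxia +1h (red) and for normoxia +1h against normoxia (grey), 1 array a group. In the classes of 100 to 300 and 300 to 1000 the red bars stand for 29 and 9 genes that were higher and the grey bars for 0, while under 30 both bars are tall in both panels.

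Most of the genes higher after reoxygenation were already higher when hypoxia ended. At 3 h, against normoxia of that collection, 52 genes (1.46%) lay 2-fold or more above and 14 (0.392%) below, and this earlier comparison shares no array with the later one. The higher genes had 26 in common, which is 68.4% of the 38 and 50% of the 52, and the lower genes had 0 in common of 2 and 14. Of the 38 genes, 9 others lay above normoxia by less than 2-fold at 3 h, and 3 (Wsb1, Ddr1 and Spry2) lay at or below it. The 26 shared genes were evenly divided, 13 further from the control at the later collection and 13 nearer. The 8 genes with the largest lower differences kept at both collections lay between -0.67 (Fen1) and -0.59 (Tubb4b) after reoxygenation. At 3 h these 8 lay between -0.84 (Elovl6) and -0.56 (Fen1). The 52 genes that were higher at 3 h had a median difference of 1.37 then and 1.01 after reoxygenation, with 48 still above 0 and 39 nearer to 0. These 52 were picked for a high value at 3 h, so smaller later values can come from that choice alone. In the mirror case, 25 of the 38 genes picked after reoxygenation were further from control then than at 3 h, and 13 were nearer. Across the 3573 genes the differences at the 2 collections correlated with Pearson's r = 0.39 and Spearman's rho = 0.26, a description over genes that are not independent of each other.

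**Figure D2:**
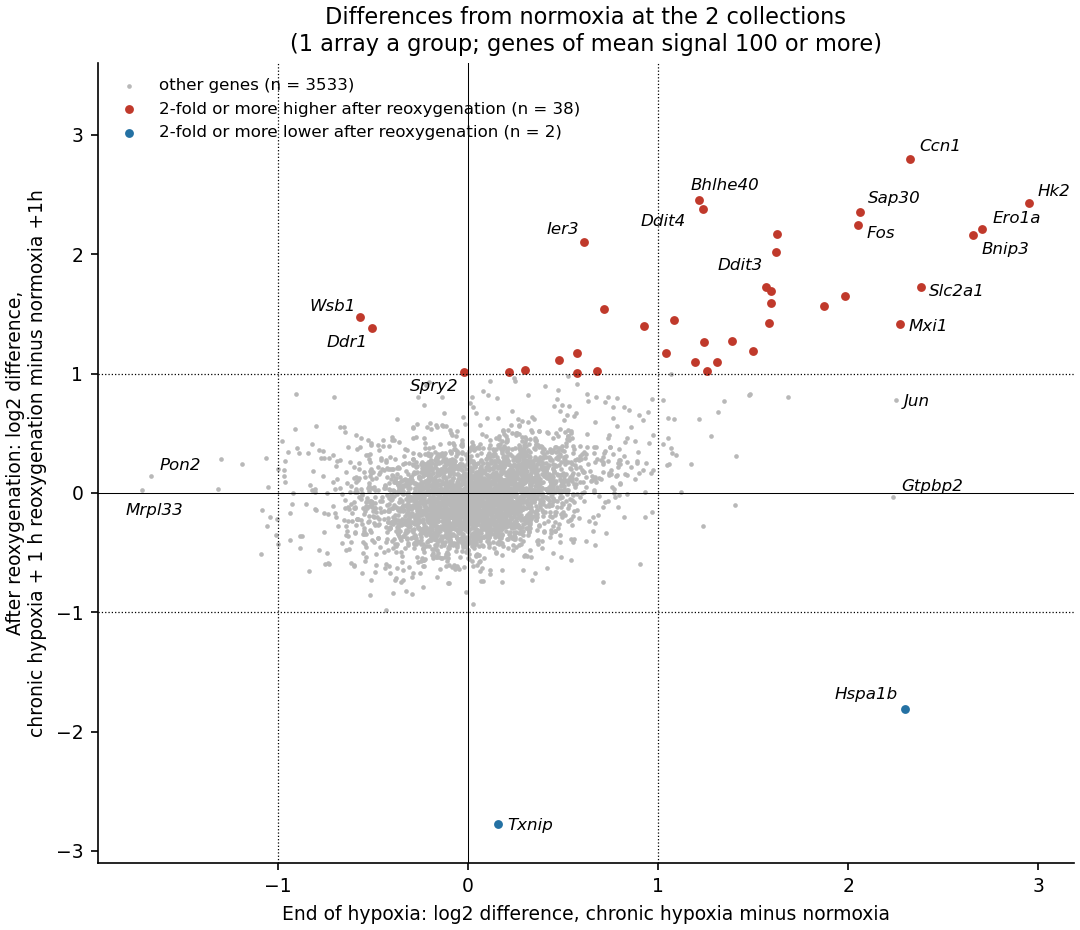
Each point is a gene of mean signal 100 or more, with the log2 difference of chronic hypoxia from normoxia at 3 h on the horizontal axis and that of chronic hypoxia with 1 h of reoxygenation from normoxia +1h on the vertical axis; dotted lines mark 2-fold, red points the 38 higher genes and blue points the 2 lower genes after reoxygenation. Most red points lie in the upper right, Gtpbp2 and Jun lie far to the right with small vertical values, and Hspa1b is the blue point at the lower right.

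The start of glucose use stood out within glycolysis. Of 15 measured genes of glycolysis under HIF, 3 were 2-fold or more higher and 0 lower, with a median of 0.32 against -0.03 for all genes, and 14 lay above 0. Hk2, hexokinase 2, which traps glucose in the cell, had a signal of 164 in normoxia +1h and 885 after reoxygenation, a difference of 2.43 (5.40-fold); it was 165 in normoxia, 1279 after chronic hypoxia, 534 after cyclic hypoxia and 405 after cyclic hypoxia with reoxygenation. Both chronic arrays were thus the highest of the 6, the normoxia pair the lowest and nearly equal. Slc2a1, the glucose transporter GLUT1, had 175 in normoxia +1h and 578 after reoxygenation (1.72), against 152 and 793 at 3 h, and its 2 other probe sets gave 1.66 and 1.92. Pfkl, the liver form of phosphofructokinase, had 147 and 314 (1.10), or 0.97 with median centring, which left 2 of 15 past 2-fold. Pfkp, the platelet form, was within 2-fold with 156 and 272 (0.81), after 1.68 at 3 h. Hk1, also at the start of the pathway, was at 0.32. The brighter enzymes further down the pathway differed less than Hk2 and Slc2a1, with Pgam1 at 0.59, Tpi1 at 0.44, Pgk1 at 0.30, Ldha at 0.28 and Aldoa at 0.28. Since 0 of the 414 genes of mean signal 1000 or more passed 2-fold, place in the pathway and brightness cannot be told apart. The lactate exporter Slc16a1 was at -0.09. Pdk1, a kinase that inhibits pyruvate dehydrogenase, was dimmer, with 28.1 in normoxia +1h and 78.8 after reoxygenation (1.49). It had been at 25.0 and 152 at 3 h.

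The other HIF targets formed the list with the most members past 2-fold. Of 15 measured, 9 were 2-fold or more higher and 0 lower, against 1.06% and 0.056% of the main set. The median was 1.41, against -0.03 for all genes of the main set, and all 15 lay above 0. The lists of glycolysis under HIF, of HIF subunits and sensors and of other HIF targets hold 32 genes of the main set, of which 12 were among the 38 higher genes, and all 12 were also 2-fold or more higher at 3 h. Bnip3, a mitochondrial receptor for mitophagy, had a signal of 123 in normoxia +1h and 549 after reoxygenation (2.16), against 127 and 803 at 3 h. Ero1a, the oxidase that passes disulfide bonds to protein disulfide isomerase, had 264 and 1223 (2.21), against 209.7 and 1367 at 3 h, and its other probe sets gave 1.01 and 2.02. Sap30, a subunit of the SIN3 corepressor complex, had 88.7 and 454 (2.36), against 89.8 and 375 at 3 h. In Bnip3, Ero1a and Sap30 each of the 2 chronic arrays was more than 4-fold above the normoxia array of its collection. Mxi1, a MAX partner that opposes MYC, was nearer to its control after reoxygenation, with 85.6 and 228 (1.41) after 81.6 and 394 at 3 h. Egln1, the main prolyl hydroxylase of HIF and itself a HIF target, was just past 2-fold with 199 and 404 (1.02), but stood at 0.89 with median centring and at 0.62 by a dimmer probe set. Hilpda, a lipid droplet protein that restrains lipolysis, had 75.1 and 339 (2.17). The 6 members within 2-fold ran from 0.18 for Insig2 to 0.77 for the mitochondrial protein Fam162a, with Ndrg1 and the collagen lysyl hydroxylase Plod2 both at 0.68. Hif1a itself had 472 and 668 (0.50), against 557 and 524 (-0.09) at 3 h.

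Several genes stood higher after the hour of reoxygenation than at the end of hypoxia itself. Bhlhe40, a repressor of the circadian clock, had a signal of 160.5 in normoxia +1h and 879 after reoxygenation (2.45), after 144 and 335 (1.22) at 3 h, and it was 199 and 224 in the cyclic arrays. Ddit4, the mTORC1 inhibitor REDD1, had 126 and 656 (2.38), after 106 and 250.2 (1.23), with 128 and 143 in the cyclic arrays. In both genes the reoxygenated chronic array was the highest of the 6 by more than 2-fold. Ier3, a stress and survival gene, had 430.1 and 1846 (4.29-fold), after 378 and 577 (0.61), with 623 and 909 in the cyclic arrays. Among dimmer genes Vegfa, the endothelial growth factor, had 28.7 and 160.2 (2.48), after 35.1 and 66.4 (0.92), with 44.1 and 48.9 in the cyclic arrays. F3, tissue factor, had 28.9 and 115 (1.99) after 34.2 and 59.0 (0.79). Map3k1, a kinase above JNK and ERK, had 15.4 and 134 (3.12) after 22.5 and 49.9 (1.15). Each of these 6 genes was thus highest after chronic hypoxia and reoxygenation. Set directly against the chronic hypoxia array of 3 h, a comparison that uses the same reoxygenated array, the signal was higher by 1.39 for Bhlhe40, 1.39 for Ddit4, 1.68 for Ier3, 1.27 for Vegfa and 1.43 for Map3k1. That comparison put 11 main-set genes (0.308%) at least 2-fold up and 6 (0.168%) at least 2-fold down.

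**Figure D3:**
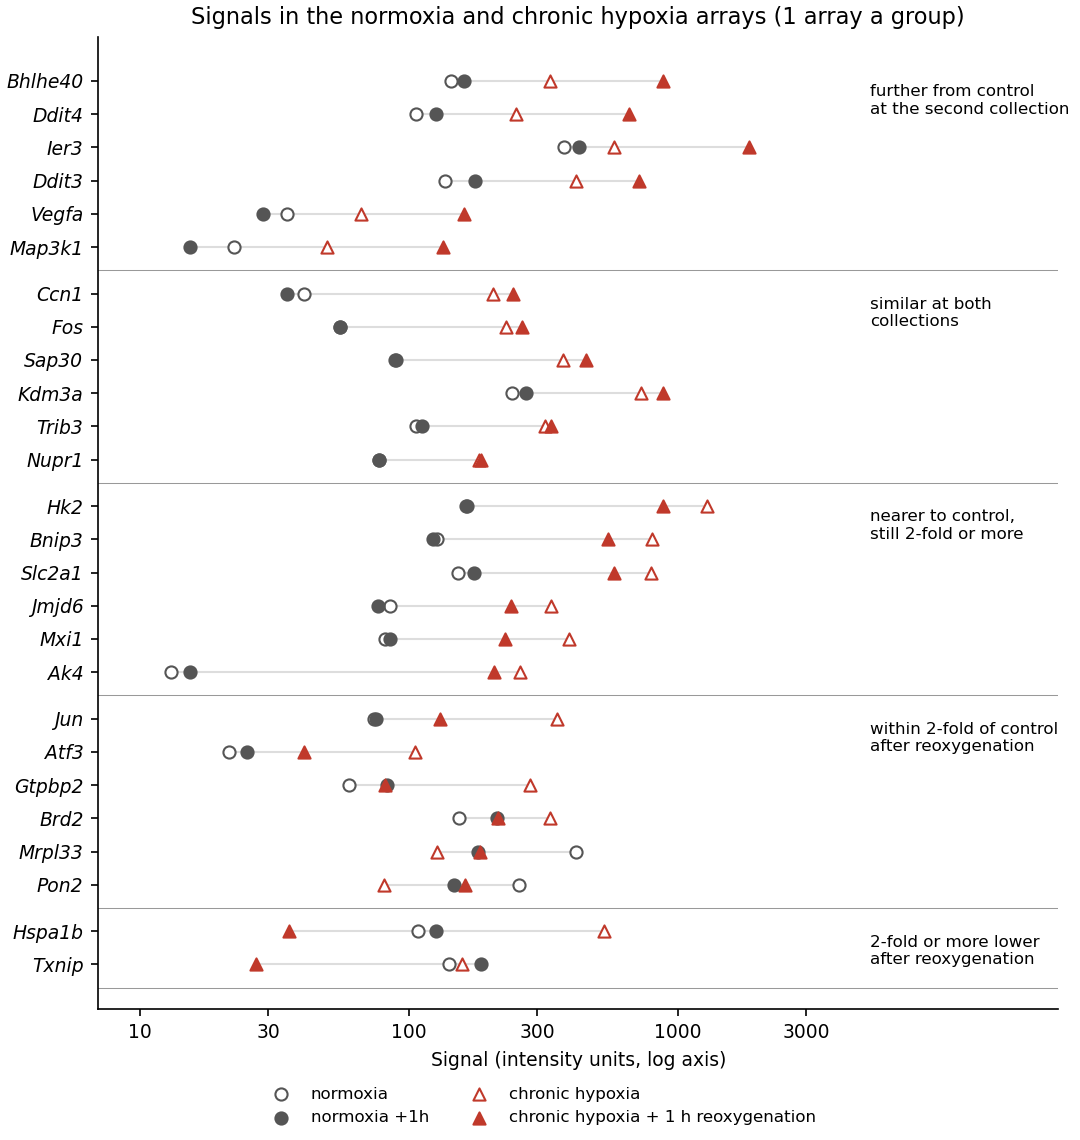
Signals (intensity units, log axis) of 26 genes in the 4 normoxia and chronic hypoxia arrays, with circles for normoxia, triangles for chronic hypoxia, open symbols for 3 h and filled symbols for the collection 1 h later, grouped by their pattern and chosen after their values were seen. In the top block the filled triangle lies furthest to the right, as for Bhlhe40 at 879, in the third block the open triangle does, as for Hk2 at 1279, and for Gtpbp2 and Brd2 the filled triangle lies on the filled circle.

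The core of the HIF response element, ACGTG or GCGTG, was looked for on both strands of the promoters, taken from RefSeq (GRCm38.p6) as 250 bases before to 50 after the annotated start. It was held by 30 of the 31 higher genes with a promoter entry (96.8%), by 72.9% of the 2976 main-set genes with one and by 46.7% of all 27025 genes with one. The core holds a CG dinucleotide, and the median number of these per 300 bases was 25 in the higher genes, 24 in the main set and 8 in all. A match to 5 letters is a description and not a binding site. The 250 bases before the start are shown for 5 genes, picked by hand from the 12 HIF list genes that were 2-fold or more higher at both collections. Of those not shown, Hilpda held 3 cores in its 300 bases, Ddit4 and Egln1 2 each, and Kdm3a, Mxi1 and Pfkl 1 each. Bhlhe40 had no entry. The sequences run 5′ to 3′ on the gene's strand and capitals mark the core, with CACGT and CACGC its reverse-strand forms. The windows are chr6:82774455-82774704, minus strand for Hk2, chr7:138909507-138909756, minus strand for Bnip3, chr14:45318573-45318822, minus strand for Ero1a, chr4:119108495-119108744, plus strand for Slc2a1 and chr8:57487861-57488110, minus strand for Sap30.
Hk2: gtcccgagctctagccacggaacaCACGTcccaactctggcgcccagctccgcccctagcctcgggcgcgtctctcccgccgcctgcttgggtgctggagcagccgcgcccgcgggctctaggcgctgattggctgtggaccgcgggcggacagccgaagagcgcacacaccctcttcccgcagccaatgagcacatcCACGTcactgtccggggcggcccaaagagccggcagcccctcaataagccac
Bnip3: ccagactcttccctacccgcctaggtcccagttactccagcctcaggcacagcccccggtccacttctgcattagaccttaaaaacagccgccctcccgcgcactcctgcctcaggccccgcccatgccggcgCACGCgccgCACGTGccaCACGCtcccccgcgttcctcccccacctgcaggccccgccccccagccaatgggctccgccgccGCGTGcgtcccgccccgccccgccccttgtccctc
Ero1a: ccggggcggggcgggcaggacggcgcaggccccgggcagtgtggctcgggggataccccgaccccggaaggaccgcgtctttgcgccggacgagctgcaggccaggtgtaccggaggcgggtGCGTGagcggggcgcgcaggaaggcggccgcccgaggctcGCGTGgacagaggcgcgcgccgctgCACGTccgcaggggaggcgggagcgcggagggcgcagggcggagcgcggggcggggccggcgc
Slc2a1: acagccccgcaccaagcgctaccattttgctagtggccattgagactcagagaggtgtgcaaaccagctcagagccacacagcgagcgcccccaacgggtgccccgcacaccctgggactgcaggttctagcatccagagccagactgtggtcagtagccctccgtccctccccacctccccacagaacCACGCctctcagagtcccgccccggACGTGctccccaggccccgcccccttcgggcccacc
Sap30: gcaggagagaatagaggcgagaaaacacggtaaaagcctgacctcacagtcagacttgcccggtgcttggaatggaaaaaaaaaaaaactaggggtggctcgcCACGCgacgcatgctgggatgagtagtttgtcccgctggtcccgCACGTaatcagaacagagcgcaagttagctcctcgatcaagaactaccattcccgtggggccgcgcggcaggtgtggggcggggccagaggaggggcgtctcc
The Hk2 window held 2 matches, whose nearer one ended 48 bases before the start. The Bnip3 window held 5, and 2 of these are the opposite strands of a CACGTG palindrome, which is also the E-box. Ero1a held 3, Slc2a1 2 and Sap30 2.

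Dim members of the same lists were mixed. Of all genes with a mean signal of 30 to 100, 1.86% were 2-fold or more higher and 0.687% lower. Of 7 other HIF targets in that range, 5 were 2-fold or more higher and 0 lower, and Car9, carbonic anhydrase 9, was at -0.33. Of 5 glycolysis genes there 1 was higher, with Slc2a3 at -0.22, and of 2 sensors none, with Egln2 at -0.95. Under 30, where counts are not read, 24.8% of all genes passed 2-fold in either direction. Of 10 other HIF targets there, 4 were higher and 1, Stc2, lower. Ak4, a mitochondrial adenylate kinase, had a signal of 15.4 in normoxia +1h and 208 after reoxygenation (3.75), and 13.0 and 259 at 3 h (4.31), while a second probe set gave 2.95. Maff, a small MAF factor, had 11.4 and 56.5 (2.31). Egln3, another prolyl hydroxylase of HIF, was dim throughout, with 8.01 and 7.73 (-0.05). The members named next were chosen after their values were seen. Rora, a nuclear receptor of the clock, had 17.5 and 61.0 (1.80), and Slc16a3, the lactate exporter MCT4, had 9.40 and 36.7 (1.96). P4ha2, a collagen prolyl hydroxylase, was at 1.29 after 2.55 at 3 h. Stc1, stanniocalcin 1, lay under 2.1 in both normoxia arrays and at 38.7 and 44.0 in the chronic arrays, which is at least 20.9-fold above 2.1 after reoxygenation.

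Among the higher genes were also JmjC members and genes of several other functions. Of 3 measured JmjC demethylases and hydroxylases, 2 were 2-fold or more higher, against 1.06% of the main set, with too few members for a median to carry weight. One of the 2, Kdm3a, is also counted among the other HIF targets. Of 7 dimmer members at 30 to 100, 0 were 2-fold higher and 0 lower, with 5 above 0 and 2 below. Of 6 under 30, 0 passed 2-fold either way. Kdm3a, a demethylase of histone H3 lysine 9 and a HIF target, had a signal of 273 in normoxia +1h and 883 after reoxygenation (1.69), against 241 and 729 at 3 h, and 767 and 363 in the cyclic arrays. Jmjd6, a JmjC lysine hydroxylase, had 76.6 and 241 (1.65), against 85.5 and 338 at 3 h, and a second bright probe set gave 1.64. Kdm2b was at 0.31. Ccng2, an atypical cyclin linked to growth arrest, had 103 and 342 (1.73), with 343 at 3 h, and its other probe set gave 1.19. Tiparp, a mono-ADP-ribosyltransferase best known as an aryl hydrocarbon receptor target, had 129.8 and 265 (1.03) after 0.30 at 3 h, but 0.97 with the mean of both normoxia arrays as control and 0.90 with median centring, and its dimmer probe sets gave 0.82 and 0.44. Of the genes chosen after their values were seen, Ogt, the enzyme that adds O-linked GlcNAc to proteins, had 116 and 343 (1.56), Pvr, the poliovirus receptor and nectin-like adhesion protein, was at 1.43, the ubiquitin ligase Rnf19a at 1.09, the splicing-linked Rsrp1 at 1.54, and the non-coding RNAs Pvt1 and Snhg1 at 1.45 and 1.17. Snhg1 stood at 0.98 with the mean of both normoxia arrays as control, and Rnf19a at 0.96 with median centring. Other probe sets of Snhg1 with a mean signal over 100 gave 1.05 and 0.74, and the dimmer one of Rnf19a gave 0.51. Probe sets of mean signal 30 to 100 gave 0.42 to 1.22 for Pvr and 0.78 to 1.46 for Ogt.

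A few genes of the integrated stress response, led by the transcription factor CHOP, were 2-fold or more higher. This response slows translation through eIF2 alpha and favours ATF4, and 4 of its 22 measured genes stood at least 2-fold higher and 0 lower, with a median of 0.39, after 7 higher and a median of 0.71 at 3 h. Ddit3, which encodes CHOP, had a signal of 177 in normoxia +1h and 719.5 after reoxygenation (2.02), against 137 and 420.1 at 3 h. It was 156 and 243 in the cyclic arrays, so the reoxygenated chronic array was the highest. Trib3, a pseudokinase that binds ATF4 and AKT, had 112 and 338 (1.59) after 1.59 at 3 h, and its other probe set gave 1.40. Chac1, a glutathione-degrading enzyme, had 129 and 293 (1.19). Nupr1, a small stress-induced chromatin protein, had 77.6 and 186 (1.26), and a second probe set gave 0.96. Atf4 itself was within 2-fold by its brightest probe set, with 811 and 1387 (0.77), after 1.03 at 3 h. Another Atf4 probe set, of mean signal 351, was past 2-fold with 229 and 478 (1.06), after 0.25 at 3 h. The amino acid transporter chains Slc7a5 and Slc3a2 were at 0.83 and 0.62. The dimmer Ppp1r15a, the phosphatase subunit GADD34 that ends the response, had 38.8 and 114 (1.55), chosen after its values were seen. Synthesis enzymes lay near 0, with asparagine synthetase Asns at 0.07, Psat1 at -0.03 and Phgdh at -0.18.

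The C/EBP-ATF composite core, TGATGNAA, was looked for in the same 300-base windows on both strands. It was held by 6 of the 19 main-set genes of the integrated stress response with a promoter entry (31.6%), by 3 of the 31 higher genes (9.68%), by 2.55% of the main set and by 4.51% of all genes with an entry. The 250 bases before the start are shown for Chac1 (chr2:119350992-119351241, plus strand) and Nupr1 (chr7:126625471-126625720, minus strand), higher members whose window holds the core before the start; capitals mark TTGCATCA, its reverse-strand form, and the sequences run 5′ to 3′ on the gene's strand.
Chac1: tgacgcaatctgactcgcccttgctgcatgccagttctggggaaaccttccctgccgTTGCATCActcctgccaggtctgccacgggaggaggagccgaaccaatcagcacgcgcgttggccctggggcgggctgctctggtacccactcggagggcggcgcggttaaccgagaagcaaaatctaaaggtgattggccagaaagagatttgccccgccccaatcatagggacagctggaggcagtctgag
Nupr1: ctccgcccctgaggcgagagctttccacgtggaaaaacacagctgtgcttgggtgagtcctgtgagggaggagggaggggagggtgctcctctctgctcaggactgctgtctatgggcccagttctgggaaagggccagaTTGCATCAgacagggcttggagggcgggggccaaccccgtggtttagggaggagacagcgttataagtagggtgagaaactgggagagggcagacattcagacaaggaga
The match in Chac1 ended 186 bases and that in Nupr1 103 bases before the start.

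Among genes of folding and degradation in the endoplasmic reticulum, only Ero1a passed 2-fold. Of 23 measured, 1 was 2-fold or more higher and 0 lower, 4 were 1.5-fold or more higher, and the median was 0.20. Hspa5, the chaperone BiP, had a signal of 2577 in normoxia +1h and 3517 after reoxygenation (0.45), against 2103 and 3022 at 3 h. Herpud1, of the degradation complex, had 366 and 647 (0.82), and with the mean of both normoxia arrays as control the list had 2 higher genes. The chaperone Hyou1 was at 0.80 after -0.14 at 3 h. Sdf2l1 was the lowest at -0.65.

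Immediate-early genes, which respond to growth factors and stress without new protein synthesis, were the other large group. Of 15 measured, 6 were 2-fold or more higher and 0 lower, against 1.06% and 0.056% of the main set. The median was 0.53, after 3 higher genes and a median of 0.52 at 3 h. Of the 15, 12 lay above 0, while Rhob (-0.24), Ier2 (-0.13) and Mcl1 (-0.08) lay below it. Of 7 dimmer members at 30 to 100, 1 was 2-fold or more higher and 1 lower. Ccn1, a secreted matrix protein that binds integrins, had the largest difference of the main set, with a signal of 35.2 in normoxia +1h and 244 after reoxygenation (2.80, or 6.94-fold). It had 41.0 in normoxia, 206 after chronic hypoxia, and 35.2 and 107 in the cyclic arrays, and a second probe set gave 3.18. The 2 chronic arrays were therefore the highest. Fos, a subunit of AP-1, had 55.7 and 264 (2.24), after 55.6 and 230.4 at 3 h, with 39.6 and 84.5 in the cyclic arrays. Egr1, a zinc-finger factor, had 35.2 and 93.1 (1.40), but its normoxia array at 3 h had 52.1, and the cyclic array with reoxygenation stood highest at 333. Nr4a1, an orphan nuclear receptor, had 230.2 and 519 (1.17), and Myc had 91.0 and 197 (1.11) with a mean signal just inside the limit, at 100.4, and stood at 0.98 with median centring. Among the dim genes Junb had 3.17 and 30.3 (3.25), with 9.01 and 20.5 (1.19) at 3 h, and Fosl2 had 9.15 and 38.3 (2.06), both chosen after their values were seen. Klf10, a TGF-beta early response factor, went the other way, with 61.6 and 22.2 (-1.47) after 66.3 and 31.8 (-1.06).

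Dusp1 and Spry2, brakes on MAP kinase signalling, were just past 2-fold. Of 7 measured genes of MAP kinase feedback, 2 were 2-fold or more higher, all 7 lay above 0, and the median was 0.55 after 0.15 at 3 h. Dusp1, a phosphatase of p38 and JNK, had a signal of 97.8 in normoxia +1h and 199 after reoxygenation (1.02). Spry2, which restrains receptor tyrosine kinase signalling, had 181 and 365 (1.01), with 234 in normoxia and 231 after chronic hypoxia. Dusp6, a phosphatase of ERK, had 548 and 800.0 (0.55) after 598 and 490.2 (-0.29). The reoxygenated chronic array was the highest of the 6 for all 3. Both calls ended with median centring (0.89 for Dusp1 and 0.88 for Spry2) and with the mean of both normoxia arrays as control (0.95 and 0.83), which left 0 of 7.

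The lower genes were few, and both were higher or near control when hypoxia ended. Txnip, the thioredoxin-interacting protein that limits glucose uptake, had a signal of 186 in normoxia +1h and 27.2 after reoxygenation (-2.77, or 6.83-fold lower). It had 142 in normoxia, 158 after chronic hypoxia, and 113 and 66.1 in the cyclic arrays, so the 2 reoxygenated arrays were the lowest of the 6. A second, dimmer probe set had 46.2 in normoxia +1h and lay under 2.1 after reoxygenation. Hspa1b, an inducible HSP70, had 126 and 35.8 (-1.81), after 108 and 532 (2.30) at 3 h, and was the gene of the main set that was 2-fold or more from control in opposite directions at the 2 collections. Its signal was thus highest at the end of chronic hypoxia and lowest 1 h later, with 52.5 and 52.0 in the cyclic arrays. Its other probe sets gave -1.52 and -1.28 after reoxygenation and 1.80 and 1.32 at 3 h. Hspa1a is a near-identical copy of Hspa1b, so the signal may come from either.

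No other heat shock chaperone passed 2-fold. Of 16 measured, 0 were higher and 1 lower, with a median of -0.07, which was 0.00 with a limit of 50 on the mean signal. Hsph1, an HSP110 that helps HSP70 release its client, had a signal of 540.1 in normoxia +1h and 320.3 after reoxygenation (-0.75), and the co-chaperones Fkbp4 and Chordc1 were at -0.64 and -0.54. Dnajb1, an HSP40, had 460.0 and 412 (-0.16) after 0.97 at 3 h, and the dimmer Hspb1, HSP27, had 66.7 and 66.4 (-0.01) after 72.1 and 182 (1.34), chosen after its values were seen. The mitochondrial Hspa9 and the constitutive Hspa8 were at 0.28 and 0.01. Next to the 2 lower genes in the main set came Lpcat1, a lysophospholipid acyltransferase, with 140.0 and 70.8 (-0.98, and -0.61 and -1.98 by dimmer probe sets). The chemokine-like factor Cklf was at -0.93 (-0.35 and -0.04 by other probe sets of mean signal over 100). The CDK4 and CDK6 inhibitor Cdkn2c was at -0.85, and the proapoptotic Siva1 at -0.85 (-0.52 and -0.32 likewise). The p53 ubiquitin ligase Mdm2 had 295 and 165 (-0.84), while a dimmer probe set gave -0.24. At 3 h that dimmer Mdm2 probe set was at 1.11 and the brighter one at -0.40.

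Several genes that were far from normoxia at the end of hypoxia lay close to it after reoxygenation. Jun, a partner of Fos in AP-1, had a signal of 75.9 in normoxia +1h and 130.5 after reoxygenation (0.78), after 74.6 and 355 (2.25) at 3 h, and its second probe set gave 0.65. Atf3, a stress factor of the same family, had 25.1 and 41.0 (0.71) after 21.5 and 106 (2.30). Jun and Atf3 were thus within 2-fold of normoxia +1h, and Fos was 4.73-fold above it. Gtpbp2, an ATF4 target, had 83.4 and 81.3 (-0.04) after 59.9 and 282 (2.24), although its other probe sets were at 0.29 and 0.57 at 3 h, so the earlier difference rests on 1 probe set. The chromatin reader Brd2 had 214 and 214 (0.01) after 154 and 334 (1.12), while its second probe set of mean signal over 100 was at 0.09 at 3 h. The nuclear RNA Malat1 (-0.10), the phosphatase methylesterase Ppme1 (0.31), the mTOR inhibitor Deptor (0.24), the Argonaute partner Tnrc6a (-0.27), Grhpr (0.24) and the Mediator subunit Med6 (0.23) completed the group, after 1.05 to 1.41 at 3 h. Other probe sets of mean signal 30 or more of Deptor (-0.09), Malat1 (-0.27 and 0.46) and Tnrc6a (-0.63 to 0.75) gave less at 3 h. The 8 genes from Gtpbp2 to Med6 were picked as the nearest to 0 after reoxygenation, which a high later control favours. For each of these 8 the normoxia array itself was higher at the later collection. The difference ran from 0.19 for Grhpr to 0.72 for Deptor and 0.96 for Med6, and was 0.48 for both Gtpbp2 and Brd2.

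The 14 genes that were 2-fold or more lower at 3 h were all within 2-fold after reoxygenation, between -0.51 and 0.30 with a median of 0.03, and 9 were within 1.2-fold. These 14 were picked for a low value at 3 h, so later values nearer to 0 can come from that choice alone. All 14 also had a lower signal in normoxia +1h than in normoxia, with differences from -1.20 to -0.23. Mrpl33, a mitochondrial ribosomal protein, had a signal of 182 in normoxia +1h and 185 after reoxygenation (0.02), with 419 in normoxia and 128 after chronic hypoxia. The lactonase Pon2 had 147 and 162 (0.14), with 258 and 81.2 at 3 h. In both genes the normoxia array of 3 h was the highest of the 6, and with the mean of both normoxia arrays as control they were at -0.58 and -0.27 after reoxygenation. Lamp2, a lysosomal membrane protein chosen after its values were seen, differed in that its reoxygenated signal of 1234 was close to both normoxia arrays (1224 and 1045) and the chronic array at 3 h was lower, at 537.

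For a few of the higher genes the normoxia +1h array lay well under the normoxia array. Wsb1, a HIF-inducible ubiquitin ligase adaptor, had a signal of 65.3 in normoxia +1h and 182 after reoxygenation (1.48), but 129 in normoxia and 87.0 after chronic hypoxia. Ddr1, a collagen receptor kinase, had 122 and 318 (1.38), with 203 in normoxia, and another probe set of it gave 0.34. Tcf7l1, a Wnt pathway factor, had 77.0 and 155 (1.01), with 133 in normoxia, and its other probe set gave -0.22. With the mean of both normoxia arrays as control, Wsb1 stood at 0.98, Tcf7l1 at 0.62 and Ddr1 at 1.01. Nckap5l, a microtubule-associated protein, had 187 and 375 (1.01), with 225 in normoxia, and stood at 0.87 with that control.

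Antioxidant genes were close to control apart from Hmox1. Of 21 measured NRF2 and antioxidant genes, 1 was 2-fold or more higher and 0 lower, with a median of 0.09, or -0.04 with median centring. Hmox1, heme oxygenase 1, had a signal of 67.9 in normoxia +1h and 164 after reoxygenation (1.28), after 71.5 and 187 at 3 h, and 191 and 221 in the cyclic arrays. It was higher in all 4 arrays with hypoxia than in both normoxia arrays. The glutathione reductase Gsr was at 0.38, and thioredoxin reductase Txnrd1 was at -0.15 with 579 and 523. The metallothioneins, which bind zinc, were at 0.83 for Mt2 (1938 and 3439.8, with 1044 in normoxia) and 0.14 for Mt1, and Mt1 was at -0.18 with quantile normalization. Of 5 measured iron genes, Hmox1 was 2-fold higher and the transferrin receptor Tfrc was at -0.31.

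The MYC, MAX and MXD network had 2 of 4 measured genes 2-fold or more higher, Mxi1 and Myc, with a median of 0.67, and the circadian clock 1 of 6, Bhlhe40, with a median of 0.31. The lists that follow held 0 genes past 2-fold. Melanocyte lineage and pigment genes (15 measured) had a median of 0.18, with Dct at 0.38, Pmel at 0.23, Tyr at 0.12 and the lineage factor Mitf at -0.21 (2568 and 2225). Quantile normalization turned Dct and Pmel slightly negative, at -0.01 and -0.05. Genes of DNA replication and G1/S (19 measured) had a median of -0.28, the lowest of the lists, with 3 above 0 and all between -0.39 and 0.12; the helicase subunits Mcm2 to Mcm7 lay between -0.34 and -0.11, and cyclin D1, Ccnd1, had 1255 and 987 (-0.35). Mitosis genes (14) were at a median of -0.08, the respiratory chain and ATP synthase (39) at -0.06, sterol synthesis (17) at -0.06, p53 targets (7) at -0.12 with Cdkn1a at 0.15, and ribosome biogenesis (14) at 0.10, or -0.03 with median centring. Invasion and metastasis genes (11) had a median of 0.25, with Cd44, the hyaluronan receptor, at 0.44 (-0.03 by a dimmer probe set), and housekeeping genes (10) 0.21, with Actb at 0.35, so a list median of this size was also found among genes chosen as steady. The housekeeping median was -0.04 with quantile normalization. Of the 38 higher genes, 26 belonged to a list and 12 to none.

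**Figure D4:**
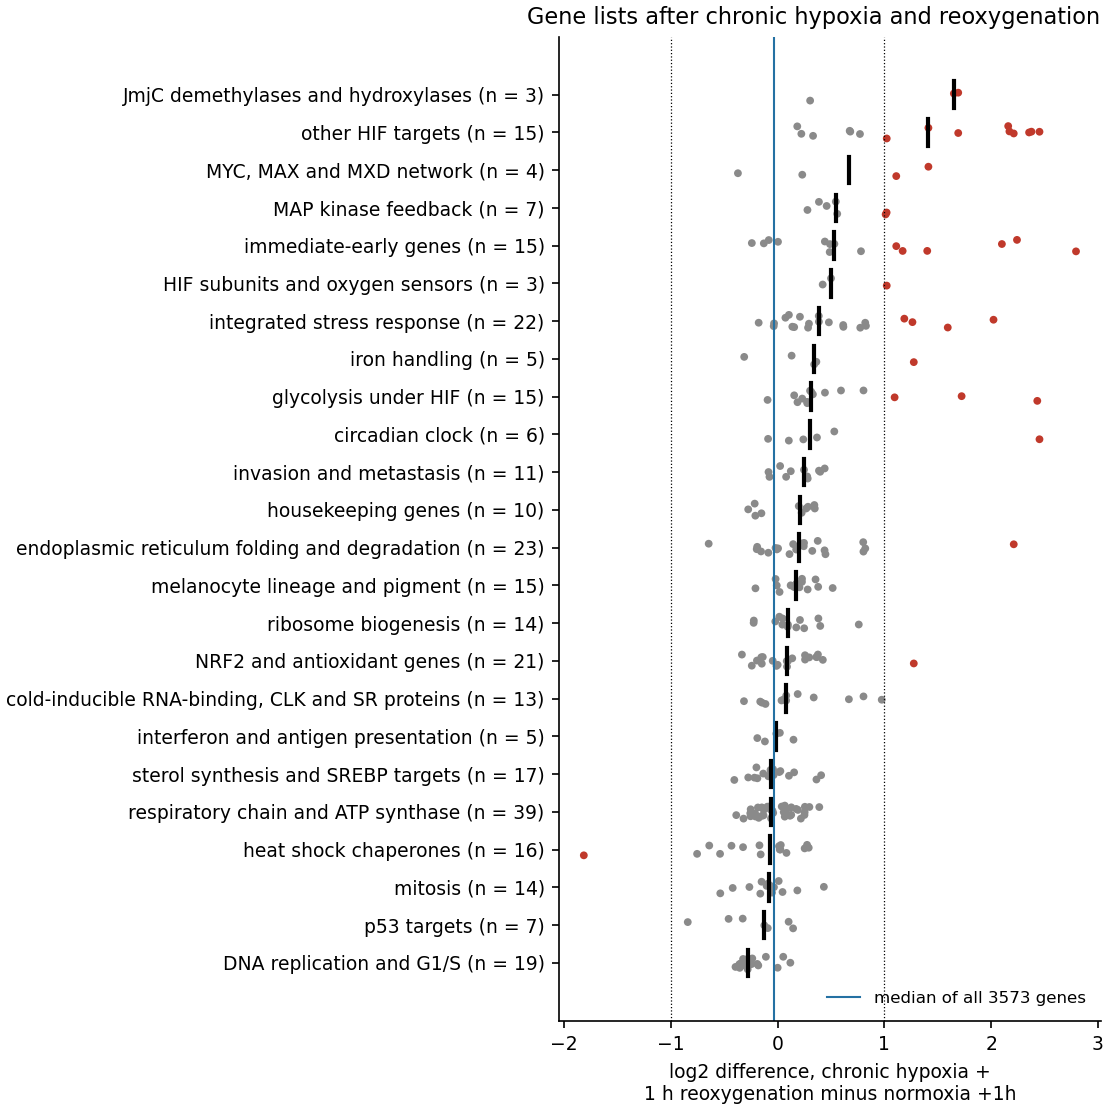
Each point is a listed gene of mean signal 100 or more, placed by its log2 difference of chronic hypoxia with 1 h of reoxygenation from normoxia +1h, with lists ordered by their median (black bar), red points 2-fold or more from control, dotted lines at 2-fold and the blue line at the median of all 3573 genes. The other HIF targets, with 9 of 15 members in red, and the immediate-early genes, with 6 of 15, reach furthest to the right, and the DNA replication list lies left of the blue line apart from 3 members.

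Cyclic hypoxia with reoxygenation was set against the same normoxia +1h array, so the 2 comparisons share their control and only their own values are placed side by side. It gave 35 genes (0.98%) 2-fold or more higher and 272 (7.61%) lower, against 38 and 2 after chronic hypoxia, and its array stood apart from the others in correlation, as given above. Of the 15 other HIF targets, 13 had a smaller difference after the cyclic regime, among them Sap30 (0.26 beside 2.36), Ddit4 (0.18 beside 2.38) and Ero1a (-0.38 beside 2.21), and 2 a larger one, Higd1a and Ndrg1 (1.40 beside 0.68). Of the 15 glycolysis genes 8 were smaller, such as Hk2 (1.30 beside 2.43), and 7 larger, such as Ldha (0.44 beside 0.28). Trib3 (1.60 beside 1.59), Nupr1 (1.40 beside 1.26), Hmox1 (1.70 beside 1.28) and Pfkl (1.01 beside 1.10) had values of like size. Egr1 was further from control after the cyclic regime, at 3.24 beside 1.40. The difference between the regimes has no test, with 1 array each.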

How the data were processed

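RNA from B16 cells was hybridised to 6 Affymetrix arrays, 1 a group, and per the submitters' processing notes the values came from GCOS, whose version and algorithm are not given in the sources used here. The deposited values are linear signals (intensity units) for 22690 probe sets, and their trimmed mean (2% left out at each end) was 100 in every array, so the authors' scaling was kept. Array signals carry no counts, and 1 array a group limits the precision.

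Probe sets were named through GEO's platform annotation: 20393 named 1 gene, 691 several and 1606 none, and 64 control probe sets were left out. Current symbols came from RefSeq for 20364. Values under 2.1 were set to 2.1 before log2. No test was run. The comparison, its members and the 31 gene lists (617 genes, 317 of them in the main set) were chosen with earlier results of these data known. Names were drawn from the 15 highest and 15 lowest genes and the 8 higher and 8 lower with the largest differences kept at both collections. They also came from the 8 higher and 6 lower nearest to 0 after reoxygenation, and those 2-fold different after reoxygenation only. List members past 2-fold, a fixed list of genes, and the highest and lowest genes of mean signal 30 to 100 were added. Not every such gene is given in the text, and those left out were mostly genes of the lower groups. Other names are said in the text to be chosen after their values were seen, or are list members given to show the range of their list. The alternatives were quantile normalization, median centring, a floor of 10, mean signals of 50, 200 or none as limit, the median over probe sets, and the mean of both normoxia arrays as control. Scripts used Python 3.11.15, numpy 2.4.6, pandas 2.3.3 and matplotlib 3.10.9, and were tested on simulated data.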

Additional observations from a re-analysis of the deposited data

Results flagged for a closer look

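Hspa1b differed from the control of its collection in opposite directions: its log2 difference was 2.30 at the end of chronic hypoxia, where its signal was 532 against 108 in normoxia, and -1.81 after reoxygenation, where it was 35.8 against 126 in normoxia +1h. The difference between the 2 collections was not tested, since each group holds 1 array. Its 3 probe sets had the same signs at each collection.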

How the results depend on the processing

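No paired analysis was possible because each group holds 1 array. Of 38 higher and 2 lower genes, quantile normalization gave 39 and 3 and median centring 29 and 4, with 38 and 29 of the higher genes shared. Median centring moved the median of all genes from -0.03 to -0.16, and 87.9% of its calls were higher, against 95%. A floor of 10 and the median over probe sets each gave 38 and 2, and the mean of both normoxia arrays as control gave 36 and 2, with 31 of the 38 shared. The limit on the mean signal moved the counts most: 50 or more gave 62 higher and 5 lower, 200 or more gave 18 and 0, and no limit gave 1070 and 608. Genes higher at both collections, 26, were 13 with a limit of 200 and 169 with none, and genes lower at both, 0, were 107 with none. Settings chosen after seeing the data, the mean over the 4 normoxia and chronic arrays (40 and 2) and leaving out probe sets that may match several transcripts (35 and 2), stayed within 1.5 times. Of 1060 values of named genes under the alternatives, 1019 moved by less than 0.21 and 41 by more, and 18 changed sign or reached 0, all of genes within 2-fold of control. Tyr turned negative with median centring. Without replicates, no difference near 2-fold can be set apart from the spread between arrays, and under a mean signal of 30 the 2 normoxia arrays themselves gave 516 higher and 972 lower genes.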
